A study of Mus musculus with 2 samples.

Results

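A set of 9 genes of the retinoic acid pathway was followed in mouse embryonic tissue taken from either side of the dorsal aorta. They were the 9 features, of 24675 with a gene symbol, whose Entrez numbers map to Rdh10, Dhrs3, Aldh1a2, Crabp1, Crabp2, Cyp26a1, Rara, Rarb and Rarg, and all 9 were measured. The ventral piece was laser-microdissected from beneath the aorta, and the dorsal piece from the space that separates the aorta from the notochord. Both came from the same embryos of strain C57Bl/6 at embryonic day 10.5, with the number of embryos not stated in the sources used here. Each tissue was hybridised to 1 Affymetrix Mouse Gene 2.0 ST array, and both arrays are labelled biological replicate 4. With 1 array per tissue there was no replicate check, so values below carry no error and no p-value.

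Retinoic acid is a signalling molecule made from vitamin A inside embryonic cells. Retinol is first oxidised to retinaldehyde, a reversible step, and retinaldehyde is then oxidised irreversibly to retinoic acid, which enters the nucleus and binds receptors that sit on DNA as dimers with retinoid X receptors. Enzymes of the Cyp26 family destroy the acid again, and neighbouring domains of synthesis and destruction give the embryo its gradients. In the aorta-gonad-mesonephros region, where blood stem cells first arise, retinoic acid signalling is known to be needed in the endothelium that gives rise to them. Several pathway genes are themselves induced by the acid, which makes them useful as readouts.

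The classic readouts are Rarb and Cyp26a1, whose promoters carry a retinoic acid response element close to the transcription start. The element, called DR5, is a pair of core motifs repeated in the same orientation with a spacer of 5 bases. The core motif searched for was AGGTCA, where G was also taken in place of the leading A and T in place of the second G. The 250 bases before the start are shown for these 2 genes, with the element in capitals, and for Dhrs3 and Aldh1a2, the 2 members that stood highest in ventral relative to dorsal tissue. Sequences are from RefSeq on the GRCm38.p6 build, 5′ to 3′ on the strand of the gene. They lie at chr14:16575477-16575726 on the minus strand for Rarb, and on the plus strand at chr19:37697558-37697807 for Cyp26a1, chr4:144892577-144892826 for Dhrs3 and chr9:71215539-71215788 for Aldh1a2. For Dhrs3 the most upstream of 3 annotated windows is given.
Rarb: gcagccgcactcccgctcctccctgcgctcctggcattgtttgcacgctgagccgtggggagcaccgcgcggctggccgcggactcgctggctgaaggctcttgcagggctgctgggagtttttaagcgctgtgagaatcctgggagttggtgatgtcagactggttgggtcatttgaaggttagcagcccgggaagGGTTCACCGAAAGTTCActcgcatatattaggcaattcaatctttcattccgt
Cyp26a1: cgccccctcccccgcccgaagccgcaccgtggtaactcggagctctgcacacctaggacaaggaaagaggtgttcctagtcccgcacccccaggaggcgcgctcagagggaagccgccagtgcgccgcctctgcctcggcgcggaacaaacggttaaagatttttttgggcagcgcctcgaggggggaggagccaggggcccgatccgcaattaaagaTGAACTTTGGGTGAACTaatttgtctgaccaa
Dhrs3: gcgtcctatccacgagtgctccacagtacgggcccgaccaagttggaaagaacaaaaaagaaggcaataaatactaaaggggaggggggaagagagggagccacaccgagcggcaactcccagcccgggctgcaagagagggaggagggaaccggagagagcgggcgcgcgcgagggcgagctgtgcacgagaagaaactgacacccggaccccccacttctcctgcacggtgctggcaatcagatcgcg
Aldh1a2: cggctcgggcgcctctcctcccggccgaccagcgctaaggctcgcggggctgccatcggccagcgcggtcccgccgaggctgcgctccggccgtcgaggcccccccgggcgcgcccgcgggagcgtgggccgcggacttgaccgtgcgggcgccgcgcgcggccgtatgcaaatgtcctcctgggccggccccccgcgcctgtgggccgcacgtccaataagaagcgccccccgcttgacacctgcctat

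In Rarb the 17-base element lay 53 to 37 bases before the start, on the strand of the gene. In Cyp26a1 it lay 32 to 16 bases before the start and on the opposite strand, where it reads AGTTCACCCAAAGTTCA. No other member's window held these letters on either strand. The search covered 13 windows of 7 members, and Rdh10 and Crabp2 had no window. Among all 32851 windows of the same length, 29, or 0.0883%, held a DR5 element. Repeats of the same core motif with a spacer of 1 base (DR1) or 2 bases (DR2) were in 0.164% and 0.174% of all windows and in none of the members'. A match is a description of the letters and does not show that a receptor binds there. Member windows were 61.6% G or C by their median, with a range of 44.8% to 77.6%, and the median of all windows was 52.4%.

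Only some of the 9 genes gave a signal above background. Values are the authors' log2 expression values, 1 per gene and array. A gene's background was judged from 1365 olfactory and vomeronasal receptor genes, which are not known to be transcribed in such tissue: their 95th percentile over both arrays, 3.92, is called the background mark, and 5.48 is their 99th percentile. Levels ran from 1.47 to 14.2 in the ventral array, with a median of 3.02, and from 1.45 to 14.1 in the dorsal array, with a median of 3.15. Of the 9 members, 4 lay above the mark in ventral tissue (Dhrs3, Aldh1a2, Crabp1 and Crabp2) and 2 in dorsal tissue (Crabp1 and Crabp2), against 23.8% of all named genes in the ventral and 24.2% in the dorsal array. The other 5 lay under it on both arrays, as did 71.2% of all named genes. Only Crabp2 exceeded the 99th percentile. Probes differ in brightness, so a level is compared between tissues for 1 gene and never between genes.

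**Figure D1:**
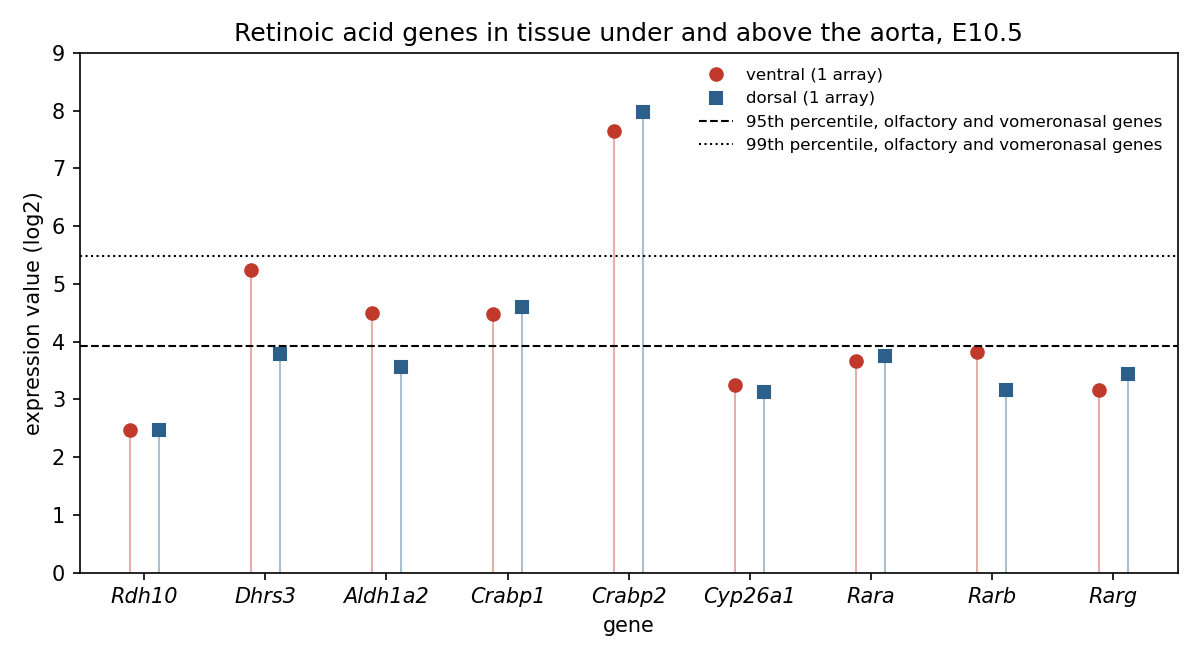
Expression values (log2) of the 9 genes, ordered by role, with the ventral array as circles and the dorsal array as squares, 1 array each and no error bars. Crabp2 is high on both arrays, Dhrs3 and Aldh1a2 are above the lower line (3.92) in ventral tissue alone, and the 3 receptors, Rdh10 and Cyp26a1 are under it on both arrays.

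Among the enzymes of synthesis, Dhrs3 was the member with the widest gap between the tissues. Dhrs3 encodes a short-chain reductase that turns retinaldehyde back into retinol, which limits synthesis, and it is known as a gene that retinoic acid induces. It read 5.24 on the ventral and 3.79 on the dorsal array, a log2 difference of 1.45. The dorsal value lay under the background mark, so the fold is a bound, 2.49-fold or more in favour of ventral tissue. No other member was 2-fold apart: 1 of 9 was that much higher under the aorta, and 0 of 9 above it. Of 13982 genes kept because their higher value reached 3.10, the median level of all named genes, 9.44% had a ventral value at least 2-fold the dorsal one and 4.88% the reverse, 14.3% in all, and 8 of the 9 members were among those kept. The share of members is therefore near the background. Among the 2901 kept genes within 0.5 of the mean level of Dhrs3, 8.55% were at least as much higher in ventral tissue. The ventral value is also under the olfactory and vomeronasal genes' 99th percentile, so this fold is less certain than that of a brighter gene.

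Aldh1a2, which encodes the retinaldehyde dehydrogenase that makes most of the retinoic acid of the early embryo, read 4.50 on the ventral and 3.56 on the dorsal array. Its log2 difference was 0.94, just short of 2-fold, and against the background mark the fold was at least 1.5 in favour of ventral tissue. Among 4582 kept genes of like level, 9.23% were at least as far apart in that direction. The difference passed 2-fold, at 1.05 on the log2 scale, when centred on the median kept gene, which lay at -0.12, and at 1.02 after a loess on level. Rdh10 encodes the dehydrogenase that carries out the first oxidation, of retinol to retinaldehyde. It read 2.47 on the ventral and 2.46 on the dorsal array, both under the mark, so a difference was not detectable at this signal. In pieces of whole tissue, fewer cells of a type and less RNA per cell cannot be told apart.

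The 2 cellular binding proteins were above background in both tissues and within 2-fold. Crabp2 encodes the protein that carries retinoic acid to its receptors. It read 7.65 on the ventral and 7.98 on the dorsal array, 1.26-fold higher in dorsal tissue with a log2 difference of -0.34. Crabp1 encodes its close relative, which is thought to hold the acid in the cytoplasm and to aid its breakdown. It read 4.48 on the ventral and 4.60 on the dorsal array, a log2 difference of -0.11. That sign turned when the differences were centred, to 0.01, so no direction is given for Crabp1. Crabp2 kept its sign under all 4 scalings tried, from -0.62 to -0.22.

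**Figure D2:**
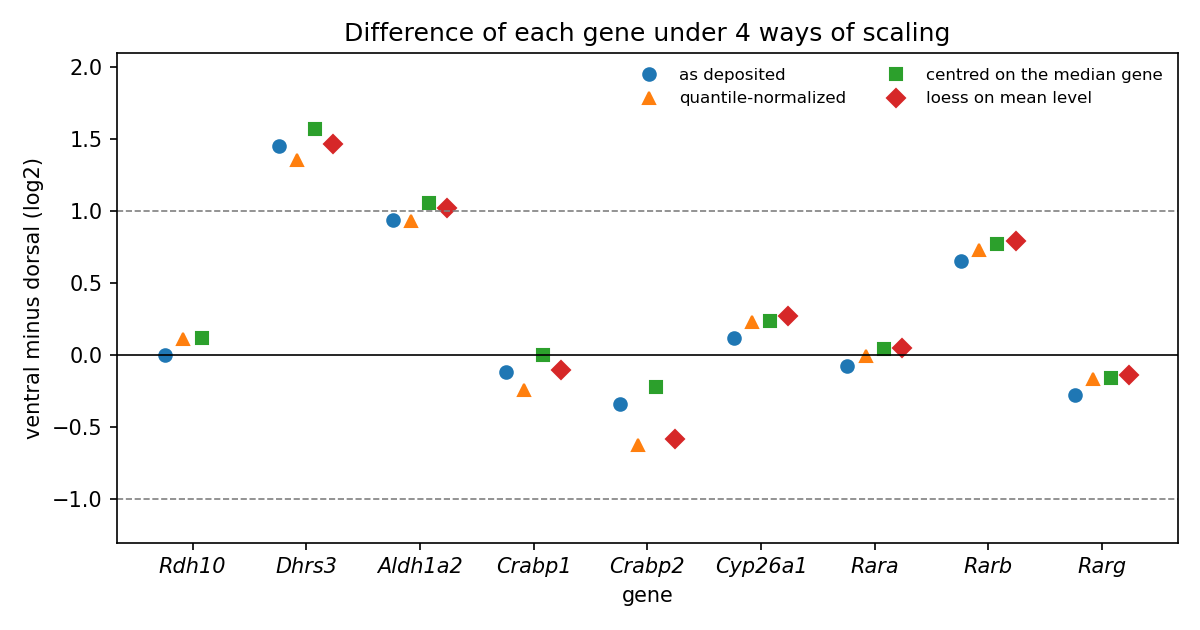
Difference of each gene, ventral minus dorsal on the log2 scale, from the deposited values and after 3 other scalings; dashed lines mark 2-fold. Dhrs3 stays above the upper line from 1.36 to 1.57, Aldh1a2 lies on either side of it from 0.93 to 1.05, and Crabp1 and Rara lie on both sides of 0. Rdh10, which was under the level floor, has no loess value.

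Breakdown and receptor genes were not detected above background. Cyp26a1 encodes the hydroxylase that clears retinoic acid, and its promoter holds the DR5 element shown above. It read 3.25 on the ventral and 3.13 on the dorsal array. Rara, the widely expressed receptor, read 3.67 on the ventral and 3.74 on the dorsal array. Rarg, the receptor associated with cartilage and skin, read 3.17 on the ventral and 3.44 on the dorsal array. All of these lay under the mark, and no fold is given.

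Rarb, the receptor gene that is itself induced through its DR5 element, had the widest gap of the 3 receptors. It read 3.82 on the ventral and 3.17 on the dorsal array, a log2 difference of 0.65. Both values lay under 3.92, so no fold is given. The ventral value did not reach the 95th percentile of the olfactory and vomeronasal genes within the ventral array alone either, which was 3.83. Among 7698 kept genes of like level, 6.65% were at least as much higher in ventral tissue. Each receptor gene has several isoforms from different promoters, which a single value per gene does not separate.

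All genes whose windows hold a DR5 element were then looked up. Of 28 such genes, 15 were measured and 10 kept, Rarb and Cyp26a1 among them. None of the 10 was at least 2-fold apart, beside 14.3% of all kept genes, and 10 genes are too few to tell these apart. Their median difference was -0.11, and that of all kept genes was -0.12.

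The rest of retinoid metabolism was described from a list of 45 further genes, of which 42 were analysed. Of these, 32 lay under the background mark on both arrays, where the share of all named genes was 71.2%. Only the 23 kept could pass 2-fold. By size, 0 of the 23 passed in favour of ventral and 3 in favour of dorsal tissue, beside 9.44% and 4.88% of all kept genes. The 3 became 2 after quantile normalization, centring or a loess on level. The 23 kept pathway genes had a median difference of -0.17, beside -0.12 for all kept genes. Ttr, which encodes transthyretin, a blood carrier of retinol-binding protein and thyroid hormone, read 4.32 on the ventral and 6.89 on the dorsal array and was 5.93-fold higher in dorsal tissue. Ttr is also a liver and yolk sac gene. Of the 7 liver markers measured, Ttr included, 5 lay under the background mark on both arrays, among them Alb, at 3.14 on the ventral and 3.08 on the dorsal array, and Afp, at 2.61 on the ventral and 3.13 on the dorsal array. The remaining marker, Hnf4a, read 3.46 on the ventral array and 3.96 on the dorsal array, just above the mark in the tissue where Ttr was higher. The part of liver or yolk sac cells in the difference was not tested.

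Rdh9, of a family of retinol and hydroxysteroid dehydrogenases, read 3.36 on the ventral and 4.88 on the dorsal array, a fold of 1.94 or more in favour of dorsal tissue. Rdh16 was also over 2-fold apart as measured, at 2.51 on the ventral and 3.59 on the dorsal array, but both values were under the mark. Its difference, -1.09, was within 2-fold under every other scaling, from -0.98 to -0.84. Rdh9 and Rdh16 belong to a cluster of close paralogs whose probes may share signal, so both values are uncertain.

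Stra6, the cell surface receptor for retinol-binding protein, was detected in both tissues at 4.57 on the ventral and 4.88 on the dorsal array. Aldh1a1 and Aldh1a3, the other two retinaldehyde dehydrogenases that make retinoic acid, were under the mark, Aldh1a1 at 2.99 on the ventral and 3.60 on the dorsal array and Aldh1a3 at 2.00 on the ventral and 2.15 on the dorsal array. Of the dehydrogenases analysed for this last step, Aldh1a2 alone had a value above the mark. Cyp26b1, a hydroxylase with the same activity as Cyp26a1, was measured at 3.19 in ventral tissue and at 3.92 in dorsal tissue, just under the mark before rounding.

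The retinoid X receptors, obligate partners of the members' receptors, were all under the mark. Rxra read 3.65 on the ventral and 3.69 on the dorsal array, and Rxrb read 3.41 on the ventral and 3.77 on the dorsal array. Of 8 measured coregulators, which open or close chromatin at the receptors' sites, 4 were above background on both arrays. Of all named genes, 23.8% were above it in the ventral and 24.2% in the dorsal array. None of the 6 kept coregulators was at least 2-fold apart, beside 14.3% of all kept genes, and 6 genes are too few to tell these apart. The 4 above background were Ncoa2, Nrip1, Ep300 and Crebbp, which were named after their values were seen. Crebbp, an acetyltransferase, read 8.45 on the ventral and 7.97 on the dorsal array.

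**Figure D3:**
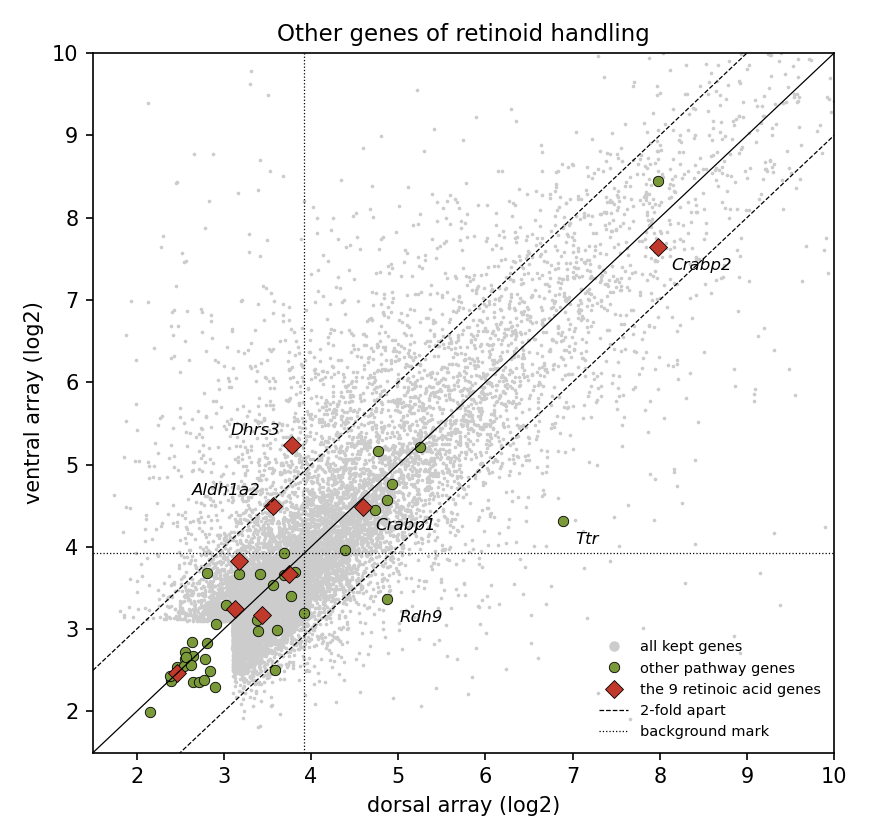
Ventral against dorsal expression value (log2) for the 9 retinoic acid genes (diamonds), the other pathway genes (green circles) and all kept genes (grey); dashed lines mark 2-fold and dotted lines the background mark of 3.92. Ttr, Rdh9 and, under the mark, Rdh16 fall below the lower dashed line, Dhrs3 above the upper one, and most pathway genes lie in the lower left corner, under the mark on both arrays.

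Genes whose expression in embryos is known to respond to retinoic acid, other than the members, were taken as a further list. It shares Stra6, Cyp26b1, Cyp26c1 and Nrip1 with the pathway list above. Of the responsive genes, 30 were analysed. Of these, 2 passed 2-fold in favour of ventral and 1 in favour of dorsal tissue, which among the 21 kept is close to the 9.44% and 4.88% of all kept genes. The 21 had a median difference of -0.14, beside -0.12 for all kept genes. Meis1, a homeobox cofactor of Hox proteins, read 7.33 on the ventral and 4.75 on the dorsal array, 5.98-fold higher in ventral tissue. Nr2f2, an orphan nuclear receptor of veins and mesenchyme, read 6.85 on the ventral and 4.91 on the dorsal array, 3.83-fold higher in ventral tissue. Tbx1, a T-box factor that retinoic acid represses, read 4.10 on the ventral and 5.27 on the dorsal array, 2.25-fold higher in dorsal tissue.

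A further 2 genes of the list, named after their values were seen, lay close to 2-fold. Hoxd4, a Hox gene with a known response element, read 5.0 on the ventral and 4.01 on the dorsal array, a log2 difference of 0.99. It passed 2-fold when centred, at 1.10, and after a loess, at 1.0, but fell to 0.87 after quantile normalization. Meis2, the paralog of Meis1, read 5.26 on the ventral and 4.42 on the dorsal array, a difference of 0.85. Of any size, 11 of the 30 genes had the higher value under the aorta and 19 above it, near the 63.3% of all named genes that were higher above it. Under the mark on both arrays lay 15 of the 30, a smaller share than the 71.2% of all named genes. All of these genes respond to other signals as well.

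**Figure D4:**
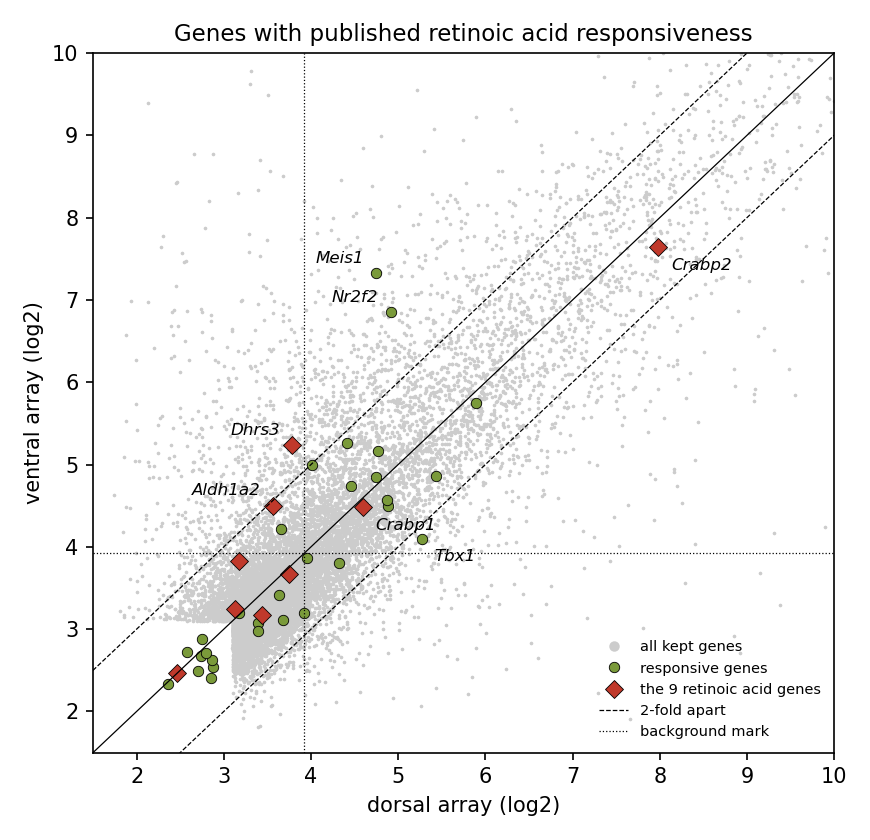
Ventral against dorsal expression value (log2) for genes with published retinoic acid responsiveness (green circles), the 9 retinoic acid genes (diamonds) and all kept genes (grey), with lines as for the other pathway genes. Meis1 and Nr2f2 stand with Dhrs3 above the upper 2-fold line and Tbx1 below the lower one.

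Marker genes of cells that each piece could hold were also compared, beside the 9.44% and 4.88% of all kept genes that passed 2-fold in favour of ventral and dorsal tissue and the 71.2% of all named genes under the mark on both arrays. Only kept markers could pass 2-fold. Kept were 10 coelomic, 6 smooth muscle, 8 endothelial and 11 sclerotome and notochord markers. In the mesonephros, neural tube and neural crest lists, 5, 6 and 7 were kept. Of 11 coelomic epithelium and gonadal ridge markers, the lining of the body cavity in which Aldh1a2 is known to be expressed, 4 passed 2-fold in favour of ventral and 0 in favour of dorsal tissue, and their summed level, added after undoing the log2, was 338 in ventral and 118 in dorsal tissue. Such sums are led by the brightest probes, here Wt1 and Tcf21. Wt1, a transcription factor of that lining, had a fold of 6.46 or more in favour of ventral tissue, and Tcf21, a factor of visceral mesenchyme, of 5.52 or more. Emx2 and Podxl also passed as measured, but against the mark their folds were only 1.92 or more and 1.38 or more. The 4 markers Upk3b, Msln, Nr5a1 and Krt19 were under the mark on both arrays.

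Of 7 smooth muscle markers, 3 passed 2-fold in favour of ventral tissue, with sums of 316 in ventral and 105 in dorsal tissue. The ventral sum was led by Cnn1, with a fold of 7.44 or more in favour of ventral tissue, and Actg2 was 3.75-fold higher there. Myh11 and Pdgfrb were under the mark on both arrays and had the higher value in dorsal tissue. Of 10 endothelial markers, 3 also passed 2-fold in favour of ventral tissue, with sums of 254 in ventral and 117 in dorsal tissue. Of the endothelial markers 6 were under the mark on both arrays, and 3 (Tek, Tie1 and Esam) had the higher value in dorsal tissue. Cdh5 was 5.34-fold higher in ventral tissue, and Emcn 2.34-fold or more. Kdr passed as measured, but its fold against the mark was only 1.88 or more. Of 11 sclerotome and notochord markers, 5 passed 2-fold in favour of dorsal tissue and 0 in favour of ventral tissue, with sums of 144 in ventral and 322 in dorsal tissue. Among the 5, Pax9 was 4.35-fold and Col2a1 2.96-fold higher in dorsal tissue. Uncx and Noto had folds against the mark of only 1.34 or more and 1.25 or more. Of 8 markers of the mesonephros and nephric duct, 1 passed 2-fold in favour of ventral tissue, Emx2, which is also 1 of the 4 coelomic genes counted above, and 6 were under the mark on both arrays, Pax2 and Pax8 among them. Of the 8, 7 had the higher value in dorsal tissue, among them Osr1, at 5.01 on the ventral and 5.63 on the dorsal array. Of 13 neural tube and motor neuron markers, 2 passed 2-fold in favour of ventral and 1 in favour of dorsal tissue, and 9 were under the mark on both arrays. Their sums were 418 in ventral tissue, led by Nefm, and 212 in dorsal tissue, though 11 of the 13 had the higher value in dorsal tissue. Nefm was 6.67-fold higher in ventral tissue, and Nefl passed as measured, at only 1.03-fold or more against the mark. Of 7 neural crest and sympathetic precursor markers, 1 passed 2-fold in favour of ventral tissue, Tfap2b, at 1.16-fold or more against the mark. Of the 7, 5 had the higher value in dorsal tissue and 5 were under the mark on both arrays. Dhrs3 and Aldh1a2 read higher in ventral tissue, as did the coelomic, smooth muscle and endothelial markers that passed 2-fold there. So did Nefm and Nefl of the neural list and Tfap2b of the neural crest list. These markers are named because they passed in that direction. Each of these lists also held markers higher in dorsal tissue, which in the coelomic list were Msln and Nr5a1. The part of any of these cells in the differences of Dhrs3 and Aldh1a2 was not tested.

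**Figure D5:**
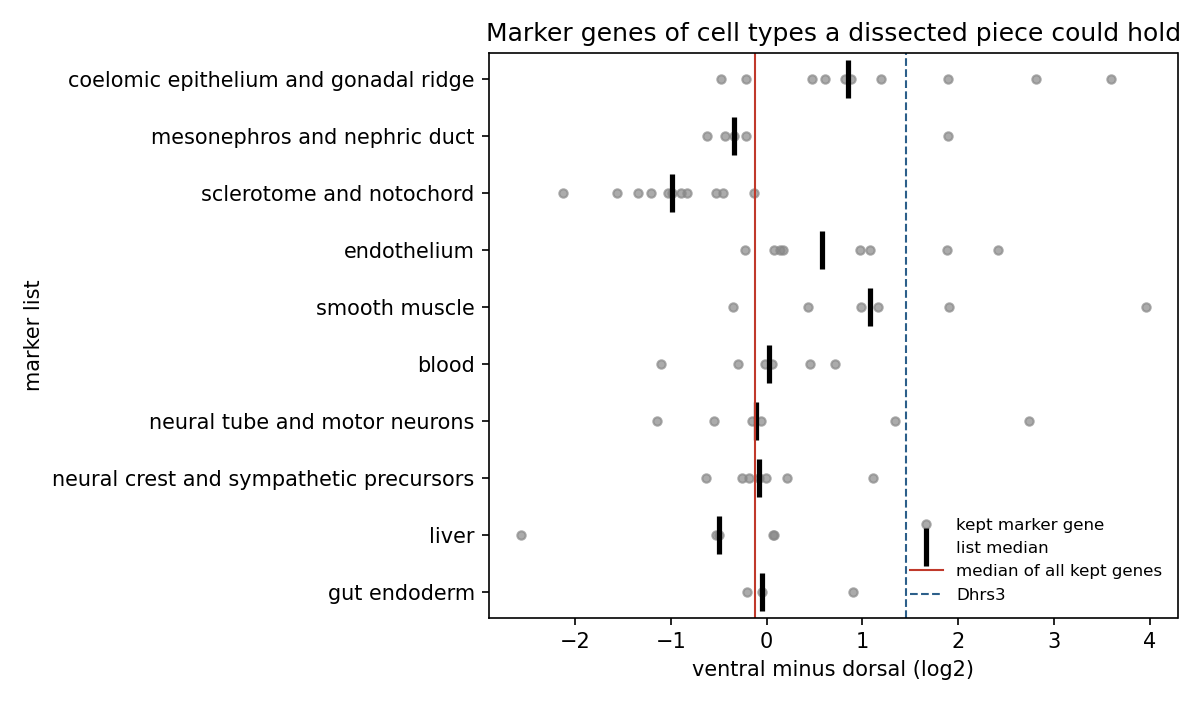
Difference of each kept marker gene, ventral minus dorsal on the log2 scale, by list (grey points), with the median of each list (black bars), the median of all kept genes (-0.12, solid line) and the difference of Dhrs3 (1.45, dashed line). The medians of the coelomic, smooth muscle and endothelial lists lie furthest right of the solid line, from 0.57 to 1.07. Those of the blood, gut endoderm, neural crest and neural tube lists also lie right of it but closer, from -0.11 to 0.02. Those of the sclerotome and notochord (-0.99), liver (-0.50) and mesonephros (-0.34) lists lie left of it. All these medians are of kept markers. Over all measured markers the median is 0.81 for the coelomic, 0.99 for the smooth muscle and only 0.16 for the endothelial list.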

How the data were processed

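RNA of 1 ventral and 1 dorsal microdissected piece was measured on arrays. Per the labels' protocols, 200 to 1000 pg of total RNA was amplified isothermally, a step in which transcripts can be lost or favoured by chance. The deposited values are log2 expression values, made with RMA in Affymetrix Expression Console, per the submitters' processing notes. Versions, genome build and the set of arrays normalized jointly are unstated in the sources used here, and signal over background is known only through genes thought silent. Of 25429 features, 24675 had exactly 1 symbol in the platform annotation and 754 had none and were not analysed here. All 24675 Entrez numbers were found in a GRCm38.p6 table.

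The members and lists were chosen with earlier results of these data known. Named were all 9 members, fixed pathway genes, and pathway and responsive genes at least 2-fold apart and above background. The rule allowed up to 2 markers per list, and folds are given for those of the coelomic, smooth muscle, endothelial, sclerotome and neural tube lists. More genes, markers among them, were named after their values were seen. The difference was ventral minus dorsal, with no test. A fold against a value under the background mark was computed against the mark. Counts at 2-fold used the differences as measured. The steps were tested on simulated data, with large shifts placed in genes of clear signal. That checks the code and does not cover low signals or small differences. Of 176 listed genes, 164 were measured. Precision is limited by there being 1 array per tissue. Alternatives covered scaling, thresholds, floors and the background mark. Python 3.11.15, pandas 2.3.3, numpy 2.4.6, statsmodels 0.14.6 and matplotlib 3.10.9 were used.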

Additional observations from a re-analysis of the deposited data

How the results depend on the processing

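No paired analysis was possible because each tissue has 1 array, although both carry the same replicate number, and no array could be left out. Of 57 values recomputed under alternatives, 44 differed by at most 1.5 times from the reported one (log2 differences compared as folds) without a difference crossing 2-fold. Dhrs3, the only member past 2-fold as deposited, stayed positive under each scaling, from 1.36 to 1.57. Centring shifts every gene alike, by the median difference of -0.12, so it could not have turned that sign. The difference of Aldh1a2 became 1.05 with centring and 1.02 with a loess on level, which took the members at least 2-fold apart to 2 under each. With thresholds of 1.5-fold and 3-fold, the members apart numbered 3 and 0, the other pathway genes 6 and 1, and all kept genes 4385 and 854, against 2002 at 2-fold; the responsive genes numbered 6 at 1.5-fold. Centring took the split of all kept genes to 1527 in favour of ventral and 527 of dorsal tissue, and quantile normalization to 1157 and 799, from 1320 and 682. Members above background on at least 1 array numbered 4 at the 95th percentile of the olfactory and vomeronasal genes, 1 at the 99th and 7 at the 90th. Rdh10, under the floor, could not be given a loess value. Responsive genes apart numbered 4 with centring and with a loess, against 3 as deposited. Other pathway genes apart in favour of dorsal tissue numbered 2 under each other scaling, against 3, and the loess added 1 in favour of ventral tissue. The low signal of 5 of 9 members limits what could be seen, and no alternative supplies the missing replicates.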
